A study of Saccharomyces cerevisiae with 36 samples.

Results

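The comparison described here is between diploid and haploid cells of the budding yeast background SK1 that both lack Xrn1, and it rests on 4 of the 36 samples of the series. The diploid group is an xrn1Δ/xrn1Δ strain with 2 libraries, and the haploid group is an xrn1Δ strain with 2 libraries, so both groups carry the deletion and differ in ploidy. Every mRNA, long noncoding RNA (lncRNA), tRNA and small RNA of the deposited table was compared. Wild-type SK1, again with 2 diploid and 2 haploid libraries, served for comparison. Each genotype is represented by 1 strain, the labels do not give mating types or marker genes, and a difference between strains other than ploidy cannot be told apart from ploidy. RNA was depleted of ribosomal RNA and sequenced with strand information, and the wider study set cells defective in RNA decay beside wild type in several backgrounds. The study's design text calls the libraries biological replicates and says nothing more of their cultures.

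Xrn1 is the exonuclease that degrades cytoplasmic RNA from the 5′ end, and XUTs are lncRNAs named for their accumulation when it is missing. CUTs and SUTs are 2 other annotated lncRNA classes, named as cryptic unstable and stable unannotated transcripts. A diploid yeast cell normally carries both mating-type alleles and makes the a1 and alpha2 proteins, which together repress the haploid-specific genes and the alpha1 activator. An alpha haploid instead makes alpha1 and turns on the alpha-specific genes, and only cells with a1 and alpha2 can enter meiosis. Diploids also place their buds differently and are larger than haploids.

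The values are read densities, the reads of a transcript divided by its length and multiplied by 1 factor per library. That factor made the summed signal of the 77 snoRNAs equal in every library. The xrn1Δ/xrn1Δ diploid libraries held 62919542 and 62535707 reads and the xrn1Δ haploid libraries 53352278 and 59980410 reads. The wild-type diploid libraries held 21991967 and 38054408 reads and the wild-type haploid libraries 39283823 and 27821942. XRN1 itself had densities of 0.00251 and 0.00126 in xrn1Δ/xrn1Δ diploids and 0.000515 and 0.000527 in xrn1Δ haploids, against 0.334 to 0.748 in the 4 wild-type libraries. Median mRNA density differed between the diploid and haploid xrn1Δ groups by 0.24 on the log2 scale, but by -1.51 between the wild-type groups. Differences, and counts by class or gene list, were also computed with the libraries scaled to their median mRNA (called median scaling below). Counts by upstream sequence match and by opposite-strand pair were not. Differences are log2(density + 0.00577), diploid minus haploid, with the moderated standard error (SE) and a Benjamini-Hochberg adjusted p over 9712 features from limma. A feature rose or fell at an adjusted p under 0.05. In such bulk samples, fewer cells of a type and less RNA per cell cannot be told apart.

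The haploid libraries carried the markers of alpha cells, and the diploid libraries those of a/alpha cells with a residue of haploid transcripts. The 4 alpha-specific transcripts summed to densities of 2.41 and 1.17 in the xrn1Δ/xrn1Δ diploids and to 35.1 and 34.6 in the xrn1Δ haploids. In diploid replicate 1 their median was 10.3% of the haploid mean, and in diploid replicate 2 it was 5.52%. For the 13 haploid-specific genes the medians were 18.4% and 12.2% of the haploid mean in those 2 diploid libraries. The 7 a-specific genes summed to 1.59 and 1.30 in the diploids and 0.753 and 0.814 in the haploids, and none of the 7 was at 0. On the deposited scale the wild-type diploid libraries carried more alpha-specific signal, 12.8% and 36.0% of their haploid mean in median. Their haploid-specific genes were at 7.53% and 25.1% in median. On that scale the median mRNA itself differed by -1.51 between the wild-type groups. With libraries scaled to their median mRNA, 1 of the 4 alpha-specific genes fell and 1 rose in wild type, with a median difference of -0.76. What part the residue of haploid transcripts has in the size of the differences below was not tested.

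Across the transcriptome, 1933 of 5760 mRNAs rose in xrn1Δ/xrn1Δ diploids (33.6%) and 1052 fell (18.3%), and the median difference was 0.13. The scaling sets this balance, since 1460 rose (25.3%) and 2341 fell (40.6%) under median scaling and the share of calls that were rises was 38.4% in place of 64.8%. Leaving out diploid replicate 1 brought the rises to 1225, and leaving out diploid replicate 2 brought the falls to 690. Most differences were small, and 93 mRNAs rose and 313 fell at least 2-fold. Of 3560 lncRNAs, 319 rose (8.96%) and 1176 fell (33%), with a median of -0.24, and the rises numbered 178 without diploid replicate 1 and 187 without haploid replicate 1. The xrn1Δ replicates had a Pearson correlation across features of 0.9955 between the diploid libraries and 0.9972 between the haploid libraries. In wild type it was 0.9898 and 0.9912. Chi-square per degree of freedom of the reads, where counting error alone gives about 1, was 7.71 and 3.354 in those xrn1Δ groups. It was 60.1 in wild-type diploids and 29.23 in wild-type haploids, so wild-type replicates differed more.

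The mating-type cassettes separated the groups. HMRA1, the annotated copy of the a1 repressor gene, had a density of 0.189 and 0.203 in the xrn1Δ/xrn1Δ diploids, from 304 and 341 reads, and 0 reads in both xrn1Δ haploids. With a floor of 3 reads per haploid library, that is at least 99.5-fold higher in diploids. MATALPHA1, which encodes the activator of alpha-specific genes, had a density of 0.0212 and 0.0154 in diploids against 0.300 and 0.283 in haploids, and fell by 3.64 ± 0.269 on the log2 scale (adjusted p = 9.99e-10). Its silent copy HMLALPHA1 fell by 3.78, but the annotated copies are identical in sequence, so reads from one cannot be assigned to it alone. MATALPHA2, the gene of the alpha2 repressor, was at 0.194 and 0.182 in diploids and at 0.552 and 0.547 in haploids (log2 difference -1.52 ± 0.196, adjusted p = 2.52e-06). HMLALPHA2 and HMRA2, which share sequence with it, fell by 1.60 and 1.03. The alpha2 transcripts were thus reduced but readily detected in diploids, while alpha1 lay near the lower end of the densities measured.

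All 4 alpha-specific genes fell, with a median difference of -4.26, while 18.3% of all mRNAs fell. MF(ALPHA)1, the main gene of the alpha-factor pheromone, had a density of 0.847 and 0.159 in the diploids and 22.04 and 21.0 in the haploids. It fell by 5.84 ± 0.646 (adjusted p = 1.05e-05), and the diploid libraries lay far below both haploid ones while differing from each other. STE3, the receptor for a-factor, was at 0.209 and 0.0430 in diploids against 5.38 and 5.48 in haploids, a fall of 5.73 ± 0.573 on the log2 scale (adjusted p = 4.06e-06). SAG1, the alpha-agglutinin that binds the partner cell, kept 1.29 and 0.945 in diploids against 7.53 and 7.88 in haploids (-2.80 ± 0.283). MF(ALPHA)2, the minor pheromone gene, was low in every library, with 0.0593 and 0.0207 in diploids and 0.187 and 0.218 in haploids (-2.32 ± 0.262). AFB1, which encodes a secreted protein that binds a-factor, was outside the list but showed the largest fall of any mRNA named by rule. Its density was 0.0952 and 0.0193 in diploids and 3.28 and 3.27 in haploids, a difference of -6.03 ± 0.635 (adjusted p = 7.09e-06). Diploid replicate 1 held more of these transcripts than replicate 2, by 1.36 to 5.32 times over the 4 alpha-specific genes, so the sizes of the falls depend on the library. Without diploid replicate 1 the difference of MF(ALPHA)1 was -7.03 and that of STE3 -6.80, and without replicate 2 both were -4.66. For AFB1 the values were -7.04 and -5.02, and for MF(ALPHA)2 -2.97 and -1.67.

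Of the 13 haploid-specific genes, 12 fell and 1 rose, with a median difference of -2.62, while 18.3% of all mRNAs fell and 33.6% rose. The subunits of the G protein that relays the pheromone signal were all low in diploids. STE18, its gamma subunit, had a density of 0.0300 and 0.00609 in diploids against 1.14 and 1.12 in haploids (-5.79 ± 0.501, adjusted p = 1.03e-06). STE4, the beta subunit, had 0.187 and 0.111 against 2.12 and 2.06 (-3.81 ± 0.353), and GPA1, the alpha subunit, had 0.146 and 0.0761 against 1.07 and 1.06 (-3.27 ± 0.303). Downstream, the mating MAP kinase FUS3 was at 0.106 and 0.0311 in diploids and at 2.00 and 2.06 in haploids, and fell by 4.99 ± 0.440 (adjusted p = 1.04e-06). FAR1, which arrests the cell cycle in response to pheromone, was at 0.271 and 0.0602 in diploids and 3.999 and 3.94 in haploids (-4.88 ± 0.5005, adjusted p = 5.26e-06). The scaffold STE5 and the transcription factor STE12 fell by 1.98 and 0.58, so STE12 kept 0.839 and 0.736 in diploids against 1.17 and 1.19 in haploids. Diploid values lay below haploid values in every library for these genes, by the widest margin for STE18 and the narrowest for STE12. Without diploid replicate 1 the differences were -6.59 for STE18, -5.91 for FAR1 and -5.79 for FUS3, and without replicate 2 they were -4.99, -3.84 and -4.19.

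Other haploid-specific genes act outside the pheromone pathway. RME1, the haploid repressor of meiosis, had a density of 0.0400 and 0.0257 in diploids and 0.749 and 0.719 in haploids (-4.29 ± 0.320, adjusted p = 7.55e-08). AXL1, needed for axial budding and for a-factor processing, was at 0.0744 and 0.0486 in diploids against 0.394 and 0.404 in haploids (-2.62 ± 0.285). NEJ1, a haploid cofactor of nonhomologous end joining, was at 0.0689 and 0.0478 against 0.373 and 0.376 (-2.59 ± 0.295), and the recombination gene RDH54 fell by 1.46. HO, the endonuclease of mating-type switching, was low in all 4 libraries, with 0.0556 and 0.0490 in diploids and 0.0715 and 0.0751 in haploids (-0.45 ± 0.133, adjusted p = 0.00843), and the call was lost without diploid replicate 2 (adjusted p = 0.0907) or haploid replicate 2 (adjusted p = 0.0648). DDI1 was the exception, with 1.00 and 0.963 in diploids and 0.723 and 0.734 in haploids (0.43 ± 0.152, adjusted p = 0.0247), a call that was lost under median scaling and without any 1 of the 4 libraries (adjusted p from 0.0693 to 0.114). The 7 a-specific genes moved the other way from the alpha-specific genes at low levels: 5 rose and none fell, with a median of 0.72, and 2 rose under median scaling. Rises made up 33.6% of all mRNAs, or 25.3% under median scaling. STE2, the alpha-factor receptor, had 0.672 and 0.595 in diploids and 0.369 and 0.395 in haploids (0.72 ± 0.190, adjusted p = 0.00398). The pheromone gene MFA2 had 0.295 and 0.248 in diploids against 0.0836 and 0.0826 in haploids (1.64 ± 0.451), AGA2 rose by 1.80, ASG7 by 0.63 and STE6 by 0.35. Without diploid replicate 1 all of these but STE2 lost their calls, with adjusted p of 0.0607 for MFA2 and from 0.185 to 0.273 for AGA2, ASG7 and STE6, and AGA2, ASG7 and STE6 also lost them without either haploid library. MFA1 (1.12, adjusted p = 0.0532) and BAR1 (0.17) did not pass the test.

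**Figure D1:**
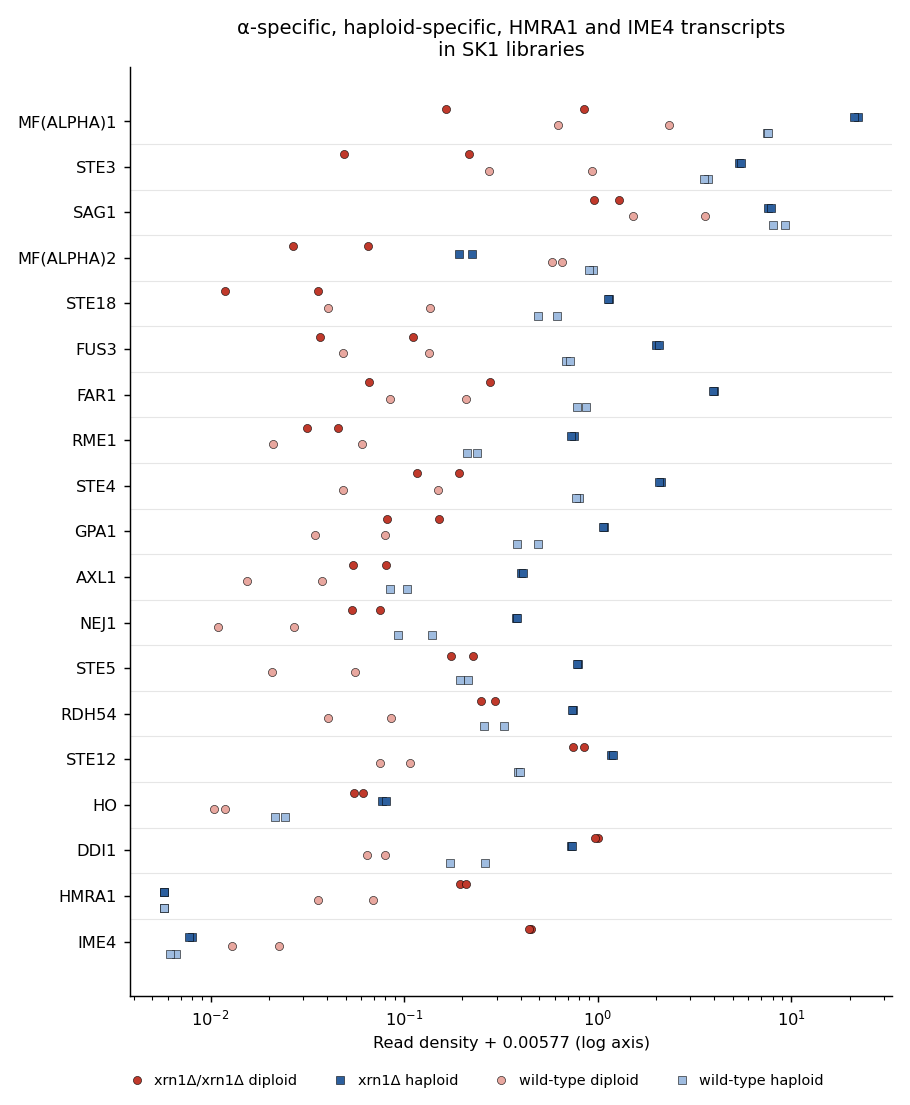
Read density (plus 0.00577, log axis) of the 4 alpha-specific genes, the 13 haploid-specific genes, HMRA1 and IME4 in each of 8 SK1 libraries, 1 point per library. Circles are diploids and squares are haploids, with xrn1Δ in dark and wild type in pale colours. The xrn1Δ/xrn1Δ diploid points lie left of the xrn1Δ haploid points for all but DDI1, HMRA1 and IME4, and the gap between the 2 diploid points of MF(ALPHA)1, STE3 and FAR1 shows the residue in replicate 1.

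The site that a1 and alpha2 bind together has a known consensus, and copies of it stand before several of the genes that fell. The sequences below are 30 bases each from the RefSeq copy of the S288C genome (build R64), not from SK1, with the match in capitals. The letters searched were TGT, then 4 free bases, A, 2 free bases and TACATCA, 11 fixed letters in all, with at most 1 mismatch, on both strands, in the 500 bases before the coding start. The genes were MATALPHA1 (chr3:200322-200351, plus strand printed), NEJ1 (chr12:675582-675611, plus), HO (chr4:48429-48458 and chr4:48389-48418, minus), RME1 (chr7:584272-584301, minus), GPA1 (chr8:115249-115278, minus), FUS3 (chr2:192140-192169, minus) and STE3 (chr11:114865-114894, minus).
MATALPHA1: tcccaaTGTAGAAAAGTACATCAtatgaaa
NEJ1: aaatccaTGTAAAAAAATACATCAatcata
HO, far match: aaatcaTGTTATTATTTACATCAacatatc
HO, near match: atgtcaTGTCCACATTAACATCAttgcaga
RME1: gtgagaTGTCACAGATTACATCAaaaggtc
GPA1: tcagcaTGTTAAAAAGCACATCAatttagg
FUS3: tatgcatTGCTTGTAGGTACATCAcatttt
STE3: aaacttTGTCAATAATTGCATCAttggatg

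Matches without a mismatch stood before 8 of 5775 nuclear genes (0.139%), among them MATALPHA1, MATALPHA2, their HML copies, HO and NEJ1. Allowing 1 mismatch, 98 genes had a match (1.7%), including 5 of the 13 haploid-specific genes (GPA1, FUS3, RME1, HO and NEJ1) and STE3 of the alpha-specific genes. Of the 98 genes, 27 rose (27.6%) and 34 fell (34.7%), with a median of -0.02, beside 33.6% and 18.3% of all mRNAs and a median of 0.13. These counts are on the deposited scale only, and under median scaling 40.6% of all mRNAs fell. The largest fall among the 98 was that of DDR2 (-5.94, with 1 mismatch), a stress gene outside these lists. STE4, STE18, STE5, FAR1, STE12, AXL1, RDH54 and DDI1 had no match in these letters and this window. A match is a description of the reference sequence only.

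Several of the largest lncRNA falls lay beside the same genes. XUT0129 (chr4:49882-50970, plus strand), upstream of HO, had the largest fall of the lncRNAs named by rule, with densities of 0.0209 and 0.0136 in diploids against 0.602 and 0.635 in haploids (-4.78 ± 0.240, adjusted p = 1.29e-11). The minus-strand XUT1030 (chr4:48247-48984), which lies over the HO promoter and was picked here after its values were seen, was at 0.00288 and 0.000392 in diploids and at 0.0951 and 0.0937 in haploids (-3.78 ± 0.200). Both noncoding transcripts thus differed more between the groups than HO itself, which fell by 0.45. Before the start of XUT0129 the reference holds 2 matches to the operator with 1 mismatch, at chr4:49410-49439 and chr4:49770-49799 (minus strand printed), shown because this lncRNA changed most.
XUT0129, far match: ggaattaTGTTAAAAGTTACATCCtttttt
XUT0129, near match: tttgccgCGTTAAAACCTACATCAaaaaag
CUT268 and XUT0665, 2 overlapping annotations that share reads, start beside NEJ1 and run away from it, opposite PDR8. XUT0665 (chr12:675668-676468, plus) had 0.00795 and 0.00145 in diploids and 0.197 and 0.189 in haploids (-4.32 ± 0.303), and CUT268 fell by 4.35. At other haploid genes lncRNAs moved either way, and their neighbours were not surveyed as a set. SUT836, opposite AXL1, rose by 1.98, and SUT204, opposite FAR1, rose by 1.09. Neighbours of STE3 and GPA1, also picked after their values were seen, fell. XUT0573 (chr11:115105-115445, plus), which runs away from STE3, had 0.0133 and 0.00849 in diploids against 0.202 and 0.228 in haploids (-3.74 ± 0.316). XUT0426 (chr8:115528-116054, plus), which runs away from GPA1, had 0.0236 and 0.00604 against 0.0877 and 0.101 (-2.43 ± 0.320). Among all 3564 lncRNAs searched, 110 had an operator match within 500 bases of their start (3.09%). On the deposited scale 5 of these rose while 40 fell (36.4%, beside 33% of all lncRNAs).

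Many genes that pheromone induces fell. Of 20 such genes 14 fell and 2 rose (17 and 2 under median scaling), with a median of -0.81, while 18.3% of all mRNAs fell and 33.6% rose, or 40.6% and 25.3% under median scaling. PRM5, a cell wall stress and pheromone-regulated gene, had 0.189 and 0.130 in diploids and 3.49 and 3.44 in haploids (-4.41 ± 0.265, adjusted p = 1.70e-09). FUS1, required for cell fusion, had 0.0615 and 0.0228 in diploids against 0.540 and 0.539 in haploids (-3.64 ± 0.305), PRM1 fell by 2.21 and the karyogamy regulator KAR4 by 1.22. FUS1 differed by -4.26 without diploid replicate 1 and by -3.02 without replicate 2. AGA1, the anchor of a-agglutinin, fell by 3.41, outside the 4 members named by rule. No pheromone treatment is given in the labels.

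At the IME4 locus, IME4 and a reading frame beside it on the other strand differed between the groups, in opposite directions. IME4 (chr7:142246-144048, plus strand), the mRNA methyltransferase that yeast uses on entry into meiosis, had densities of 0.444 and 0.436 in xrn1Δ/xrn1Δ diploids, from 2642 and 2716 reads, and 0.00225 and 0.00201 in xrn1Δ haploids, from 12 reads each. The difference was 5.82 ± 0.218 (adjusted p = 8.84e-15), and no other mRNA of the meiotic lists rose nearly as much. RME2 (chr7:141898-144120, minus), the antisense RNA over IME4, is a known repressor of it in haploids. It was not analysed on its own here, but the annotated open reading frame YGL193C (chr7:141916-142227, minus) lies wholly within it. YGL193C does not overlap IME4, so the strand opposite IME4 itself was not measured here. YGL193C moved the opposite way, with 0.390 and 0.292 in diploids against 4.47 and 4.60 in haploids (-3.72 ± 0.386, adjusted p = 4.03e-06). Before the start of RME2 the reference has an operator match with 1 mismatch, at chr7:144200-144229 (plus strand printed), shown because the antisense start lies at the far end of IME4.
RME2: gagtccgTGTATTTTTTTACATCAactgga

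IME1, the master regulator of meiosis, did not follow IME4. It was low in all 4 libraries, with 0.0106 and 0.00989 in diploids and 0.0240 and 0.0231 in haploids, and fell by 0.87 ± 0.196 (adjusted p = 0.000982). SUT643 (chr10:605936-607424, minus), whose coordinates are those of IRT1, the RNA transcribed through the IME1 promoter, had 0.0926 and 0.0910 in diploids and 0.0789 and 0.0858 in haploids. It did not pass the test (0.15 ± 0.177, adjusted p = 0.518), while RME1, known to drive that RNA in haploids, fell by 4.29 in the same comparison. XUT1396, which overlaps SUT643 and shares its reads, had 0.0957 and 0.0941 in diploids and 0.0815 and 0.0893 in haploids. CUT218, antisense to IME1, rested on few reads and was not called (0.21 ± 0.344).

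The counts of the 3 meiotic lists depend on the scaling. Of all mRNAs 33.6% rose and 18.3% fell, or 25.3% and 40.6% under median scaling. Among 15 regulators of meiotic entry 5 rose and 3 fell, with a median of 0.23, which is near the shares of all mRNAs. Under median scaling 4 rose and 5 fell, with a median of -0.01. The transcriptional corepressor SIN3 had 1.497 and 1.37 in diploids against 0.795 and 0.774 in haploids (0.86 ± 0.136), and the nutrient kinase RIM15 rose by 0.73. RIM4, an RNA-binding translational repressor of meiosis, went down to 0.0483 and 0.0426 in diploids, against 0.531 and 0.564 in haploids (-3.44 ± 0.199, adjusted p = 1.19e-11). Of 25 early meiosis genes tested 6 rose and 9 fell (3 and 11 under median scaling), with a median of 0.04 that was -0.20 under median scaling. REC8, the meiotic cohesin, and HOP1, a protein of the chromosome axis, fell by 1.76 and 1.05 at densities under 0.0696 in every library, while CST9 and REC107, which act in recombination, rose by 0.69 and 0.67. Of 22 middle and late sporulation genes tested 1 rose and 8 fell, with a median of -0.22, but 15 fell and 1 rose under median scaling, where 40.6% of all mRNAs fell. Among them MPC54 fell by 1.60 and CRR1 by 1.46.

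Among the 12 mRNAs above the median density that rose most, 6 were genes of daughter cells and cell separation. These genes encode enzymes and wall proteins made in the newborn daughter, and their products digest the septum from the daughter's side. Of 11 such genes 8 rose and 1 fell, beside 33.6% and 18.3% of all mRNAs, with a median difference of 1.81. Under median scaling 7 rose and 2 fell, beside 25.3% and 40.6%. In wild-type diploids 6 of the 11 rose and 5 fell, beside 0.747% and 94.2% of all mRNAs. Under median scaling these wild-type counts were 8 and 1, beside 40.9% and 26.7%. DSE2, a secreted daughter-specific protein similar to glucanases, had densities of 3.41 and 3.33 in diploids and 0.131 and 0.143 in haploids (4.56 ± 0.261, adjusted p = 8.64e-10). DSE1, a daughter-specific protein of the bud neck, had 2.36 and 2.35 in diploids against 0.128 and 0.126 in haploids (4.15 ± 0.139, adjusted p = 2.12e-15). PRY3, a cell wall protein of daughter cells, had 1.74 and 1.65 against 0.152 and 0.154 (3.42 ± 0.205). For all of these the replicates of a group lay close together and the groups were far apart.

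CTS1, the chitinase that frees the daughter, had 3.31 and 3.26 in diploids and 0.690 and 0.679 in haploids (2.25 ± 0.174). The glucanases SCW11 and DSE4 had 3.27 and 3.06, and 3.39 and 3.36, in diploids against 0.742 and 0.787, and 0.958 and 0.960, in haploids (2.04 ± 0.196 and 1.81 ± 0.159). YLR285C-A, named by the same rule, rose by 2.02, but it lies just downstream of CTS1 on the same strand and may hold its reads. DSE3 rose by 0.84 and EGT2, an early G1 wall gene, by 0.35, and the call of EGT2 was lost under median scaling. AMN1, which turns off mitotic exit in daughters, fell by 0.77, with 1.73 and 1.64 in diploids against 2.94 and 2.82 in haploids. ASH1, the repressor of HO in daughters, had 1.92 and 1.74 in diploids and 1.90 and 1.87 in haploids (-0.05, adjusted p = 0.798), and SUN4 was not called either (0.23).

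**Figure D2:**
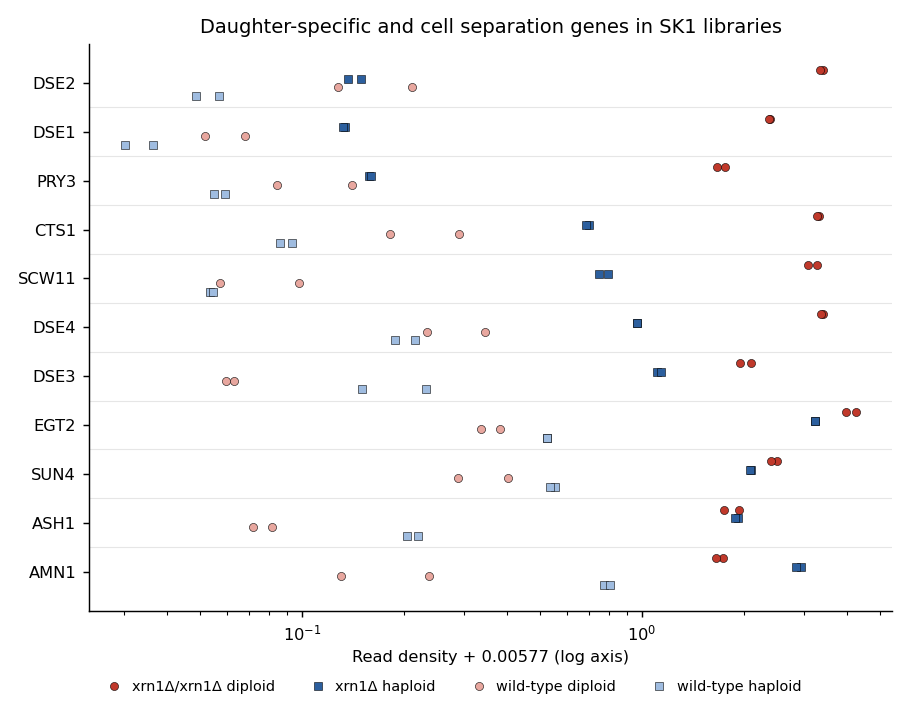
Read density (plus 0.00577, log axis) of the 11 daughter-specific and cell separation genes in each of 8 SK1 libraries, 1 point per library, with diploids as circles and haploids as squares. In xrn1Δ the diploid points of DSE2, DSE1 and PRY3 lie more than 10 times above the haploid points, those of ASH1 and SUN4 lie close to them, and those of AMN1 lie below.

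Other large rises concerned metabolism and transport. COX26, a small subunit of cytochrome c oxidase, had densities of 14.5 and 13.7 in diploids and 0.967 and 1.03 in haploids (3.81 ± 0.162, adjusted p = 7.46e-14). PHO84, the high-affinity phosphate transporter, had 1.13 and 1.09 against 0.0838 and 0.115 (3.42 ± 0.316, adjusted p = 7.41e-07), while the 17 genes of the phosphate regulon gave 6 higher and 4 lower (5 and 7 under median scaling), beside 33.6% and 18.3% of all mRNAs. SAM3, a permease for S-adenosylmethionine, had 4.84 and 4.78 in diploids and 0.767 and 0.838 in haploids (2.58 ± 0.151). The peptide transporter PTR2 rose by 1.96, the phospholipase gene PLB2 by 1.89 and HAP4, the activator of respiratory genes, by 1.90 (6.26 and 5.21 in diploids, 1.56 and 1.499 in haploids). The 43 nuclear genes of oxidative phosphorylation and the TCA cycle did not share a direction, with 7 higher and 7 lower (4 and 22 under median scaling). The shares of all mRNAs were 33.6% and 18.3% (25.3% and 40.6% under median scaling).

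Cell wall proteins and flocculins were mostly lower in diploids. Of 23 such genes 14 fell and 2 rose, with a median of -1.19, beside falls of 18.3% of all mRNAs. Under median scaling 19 fell, beside 40.6%. CWP2, a major mannoprotein of the wall, had a density of 1.82 and 1.49 in diploids and 31.2 and 29.6 in haploids (-4.20 ± 0.343, adjusted p = 3.67e-07). FLO11, the flocculin of invasive and filamentous growth, had 0.396 and 0.282 in diploids against 2.89 and 2.84 in haploids (-3.08 ± 0.198, adjusted p = 6.17e-11). FLO9 and FLO1 fell by 1.72 and 2.02, and FLO5 rose by 1.12, but these genes share repeats, so reads may be split among them. YAL065C, a short reading frame similar to FLO1, fell by 3.95. TIR3, a wall mannoprotein gene known for its expression at low oxygen, rose instead, with 1.43 and 1.16 in diploids and 0.212 and 0.196 in haploids (2.63 ± 0.238, adjusted p = 2.39e-08).

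General stress genes were likewise lower. Of 27 genes 15 fell and 1 rose, with a median of -0.75, where 18.3% of all mRNAs fell and 33.6% rose. Under median scaling 17 fell and 0 rose, beside 40.6% and 25.3% of all mRNAs. DDR2, a stress-inducible small protein gene, had 0.0897 and 0.0311 in diploids and 3.76 and 3.51 in haploids (-5.94 ± 0.490, adjusted p = 5.76e-07), or -6.63 without diploid replicate 1 and -5.25 without replicate 2. HSP12, a membrane-stabilising stress protein, had 1.44 and 1.37 in diploids and 28.6 and 30.1 in haploids (-4.38 ± 0.199, adjusted p = 1.97e-12). The hydrophilin genes SIP18 and GRE1 fell by 3.54 and 1.91, and GPH1, glycogen phosphorylase, by 2.03. Iron uptake genes fell without exception among those called, 15 of 21 (18 under median scaling) beside 18.3% of all mRNAs (40.6%), with a median of -0.87. The wall mannoprotein gene FIT2, which helps retain siderophores, had 0.442 and 0.297 in diploids against 3.74 and 4.04 in haploids (-3.40 ± 0.342). FRE5, similar to ferric reductases, fell by 2.16, the siderophore transporter gene ARN2 by 1.66 and the copper chaperone gene ATX1 by 0.87.

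Sugar uptake and sulfur metabolism also differed by gene. Of 16 hexose transporter genes tested 10 fell and 1 rose (13 and 0 under median scaling), beside 18.3% and 33.6% of all mRNAs, with a median of -0.53. HXT11, HXT7, HXT9 and HXT6 fell by 1.63, 1.26, 1.03 and 0.76, with HXT6 and HXT7 nearly identical copies. Of 18 glycolysis and fermentation genes 7 fell and 1 rose, but 13 fell under median scaling, where the share of all mRNAs was 40.6% in place of 18.3%. The one that rose was ENO2, the main enolase, with 88.3 and 85.4 in diploids against 44.7 and 44.8 in haploids (0.96 ± 0.108, adjusted p = 3.30e-07), whereas its paralog ENO1 fell by 0.69. Among 35 amino acid biosynthesis genes tested 7 rose and 11 fell, or 5 and 22 under median scaling, beside 33.6% and 18.3%, or 25.3% and 40.6%, of all mRNAs. The 4 with the smallest adjusted p were all of methionine and sulfate assimilation and all fell: MET17 by 2.02, MET14 by 1.53, MET6 by 1.10 and MET3 by 1.02. URA3, among 9 genes often used as auxotrophic markers, had 0.381 and 0.379 in diploids and 1.13 and 1.16 in haploids (-1.57 ± 0.186), and TRP1 rose by 0.98. Genotypes at these marker genes are not given in the labels.

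Growth and cell cycle genes differed less. Of 16 G1 cyclin and Start genes 10 rose and 3 fell, with a median of 0.44, but 4 rose and 3 fell under median scaling. Beside this and the other lists here, 33.6% of all mRNAs rose and 18.3% fell, or 25.3% and 40.6% under median scaling. SWI6, a subunit of the Start transcription factors, rose by 0.87, MBP1 by 0.61 and the inhibitor SIC1 by 0.58. Of 11 bud-site selection genes 5 rose and 1 fell (5 and 2 under median scaling), beside 33.6% and 18.3% of all mRNAs. BUD9, a marker of the pole proximal to the birth scar, had 0.596 and 0.577 in diploids and 0.205 and 0.201 in haploids (1.51 ± 0.121, adjusted p = 1.79e-09), and AXL2, a landmark of axial budding, had 1.03 and 0.931 against 1.78 and 1.83 (-0.88 ± 0.197). Of 8 nonhomologous end joining genes, a list without NEJ1, 6 rose (5 under median scaling) beside 33.6% of all mRNAs, YKU80 most (0.89 ± 0.148). Of 11 histone genes 1 rose and 1 fell, or 1 and 6 under median scaling.

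Ribosomal protein genes and ribosome biogenesis genes differed in direction under the deposited scaling. The shares to set beside each list here are 33.6% rises and 18.3% falls of all mRNAs, or 25.3% and 40.6% under median scaling. None of the 138 ribosomal protein genes rose and 59 fell, with a median of -0.24, and 133 fell under median scaling. Of 38 ribosome biogenesis genes 20 rose and 4 fell, with a median of 0.36, but 10 rose and 7 fell under median scaling. NOP56 and NOP58, the core proteins of the box C/D snoRNPs, were exceptions, NOP56 with 1.33 and 1.19 in diploids and 3.80 and 3.66 in haploids (-1.56 ± 0.136, adjusted p = 5.92e-09) and NOP58 with a fall of 1.15. Of 5 factors of nonsense-mediated decay, the pathway that removes mRNAs with early stop codons, 4 rose: NMD2 by 0.80, EBS1 by 0.69, UPF3 by 0.46 and NAM7 by 0.40. Under median scaling 3 rose and 1 fell, and NAM7 also lost its call without any 1 of the 4 libraries (adjusted p from 0.0527 to 0.108). Of 21 decapping and decay factors 6 rose and 6 fell, with the decapping enzyme DCP2 higher by 0.75 and its activator DHH1 lower by 0.73. Of 8 mitochondrially encoded genes 2 rose, COX1 by 0.80 and COX3 by 0.48. Medians by chromosome lay between 0.00 and 0.20 for the 16 nuclear chromosomes, beside 0.13 over all mRNAs.

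**Figure D3:**
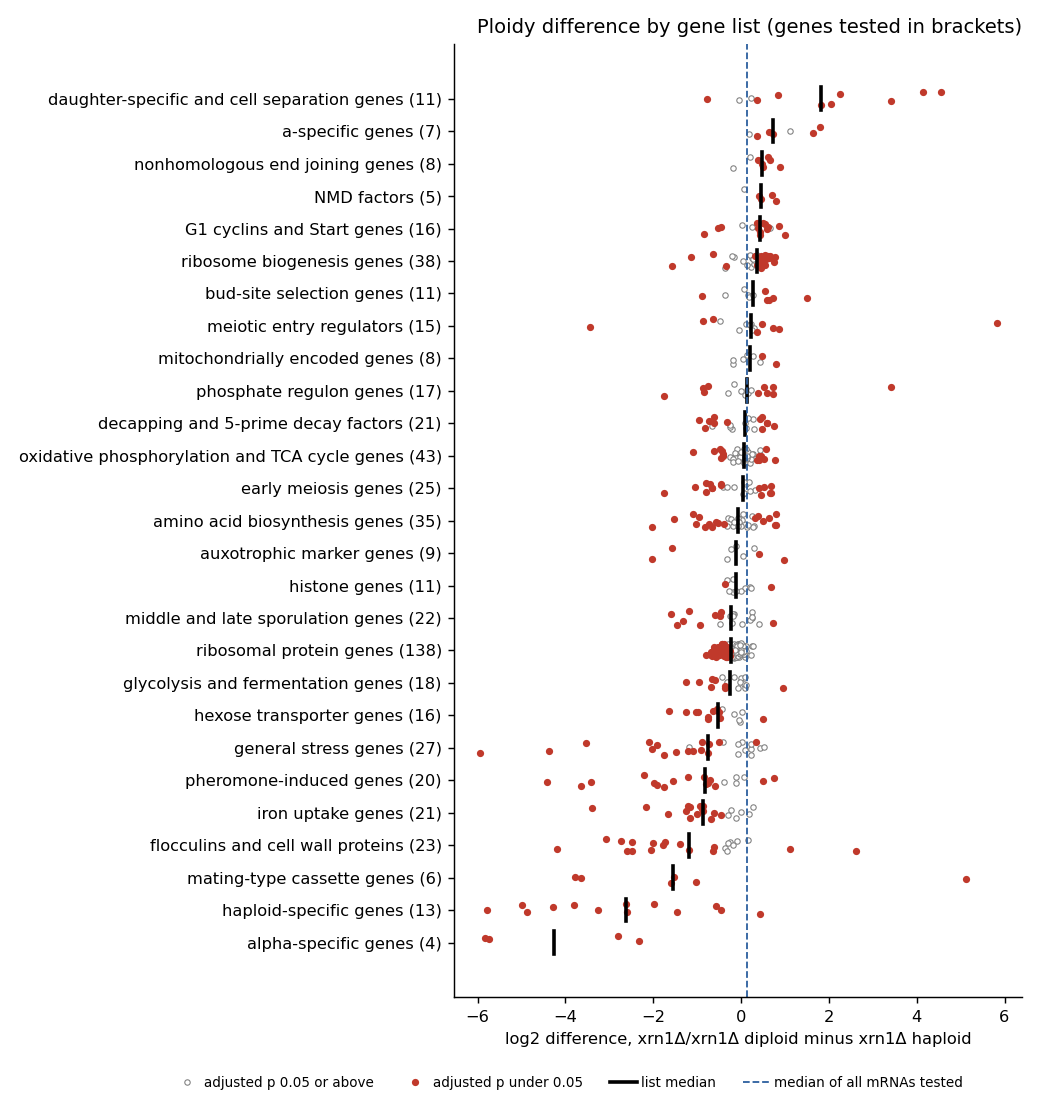
Log2 difference in read density, xrn1Δ/xrn1Δ diploid minus xrn1Δ haploid, for every gene tested in 27 lists, 1 point per gene, filled where the adjusted p was under 0.05. Black bars are list medians and the dashed line is the median of all mRNAs, 0.13. The daughter-specific list has the highest median (1.81) and the alpha-specific list the lowest (-4.26).

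Noncoding transcripts fell more often than mRNAs. Of 1798 XUTs tested 157 rose (8.73%) and 665 fell (37%), with a median difference of -0.30. Of 923 CUTs 60 rose (6.5%) and 211 fell (22.9%), with a median of -0.18, and of 839 SUTs 102 rose (12.2%) and 300 fell (35.8%), with a median of -0.22. At least 2-fold, 55 lncRNAs rose and 494 fell, and under median scaling 169 rose (4.75%) and 1839 fell (51.7%). Many lncRNA annotations overlap on one strand and share reads, so these counts are not of independent transcripts. Among 298 tRNAs 19 rose (6.38%) and 13 fell (4.36%), and among the 77 snoRNAs, whose sum defines the scale, 5 rose (6.49%) and 36 fell (46.8%).

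Besides those beside HO and NEJ1, the largest named falls were of XUT0905 and SUT419, which overlap each other opposite YPR015C, and of XUT0944. XUT0905 (chr16:590702-592133, plus) had a density of 0.00402 and 0.00344 in diploids and 0.207 and 0.202 in haploids (-4.47 ± 0.195, adjusted p = 9.10e-14). YPR015C, the reading frame on the other strand, fell too, with 0.114 and 0.116 in diploids against 0.462 and 0.484 in haploids (-1.99). XUT0944 (chr1:189625-190048, minus) had 0.0136 and 0.0143 against 0.361 and 0.379 (-4.25 ± 0.185). The largest rise was of XUT0414 (chr8:59125-60049, plus), opposite NPR3, a subunit of an amino acid signalling complex, with 0.134 and 0.134 in diploids and 0.0135 and 0.0108 in haploids (2.97 ± 0.157, adjusted p = 3.23e-12). NPR3 was not called (0.35). SUT148 covers the same stretch and rose by 2.94, and SUT116 and XUT0342, opposite the choline transporter gene HNM1, rose by 1.67 and 1.66 while HNM1 fell by 0.83.

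Transcripts from opposite strands of a locus could be followed because the libraries kept strand. Pairs of an mRNA and a lncRNA that overlap by at least 200 nucleotides on opposite strands numbered 1913, and the lncRNA rose in 12.2% and fell in 32.5% of them. All pair counts are on the deposited scale. Opposite mRNAs that rose (625 pairs), 51 lncRNAs rose (8.16%) and 252 fell (40.3%). Opposite mRNAs that fell (479 pairs), 89 rose (18.6%) and 127 fell (26.5%). The difference was one of degree, and lncRNAs that fell outnumbered those that rose opposite mRNAs of either direction.

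In 34 of the 1913 pairs both transcripts were called and changed at least 2-fold in opposite directions. Pairs with such changes in the same direction were not counted. Several genes recur among the 34 through overlapping lncRNA annotations that share reads, so this is not a count of loci. The following were picked from the 34 pairs after their values were seen. DSE1 rose by 4.15, and XUT0294 (chr5:407170-408024, plus) opposite it had densities of 0.0340 and 0.0342 in diploids and 0.170 and 0.183 in haploids (-2.19 ± 0.224). TIR3 rose by 2.63, and XUT1347 (chr9:333633-334178, minus) had 0.0128 and 0.00583 in diploids against 0.109 and 0.130 in haploids (-3.09 ± 0.236). In xrn1Δ haploids DSE1 lay below its antisense partner, whereas TIR3 exceeded its partner in all 4 libraries. Among genes that fell, RIM4 fell by 3.44, and SUT574 (chr8:56600-58968, minus) had 0.331 and 0.309 in diploids and 0.126 and 0.124 in haploids (1.31 ± 0.151). AXL1 fell by 2.62, and SUT836 (chr16:781971-785379, minus), which is also named by rule, had 0.464 and 0.492 in diploids against 0.109 and 0.125 in haploids (1.98 ± 0.163). FAR1 fell by 4.88, and SUT204 (chr10:123804-126468, plus) had 0.218 and 0.201 against 0.0921 and 0.0990 (1.09 ± 0.155). At RIM4 and AXL1 the noncoding strand was the more abundant one in both diploid libraries and the coding strand in both haploid libraries.

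**Figure D4:**
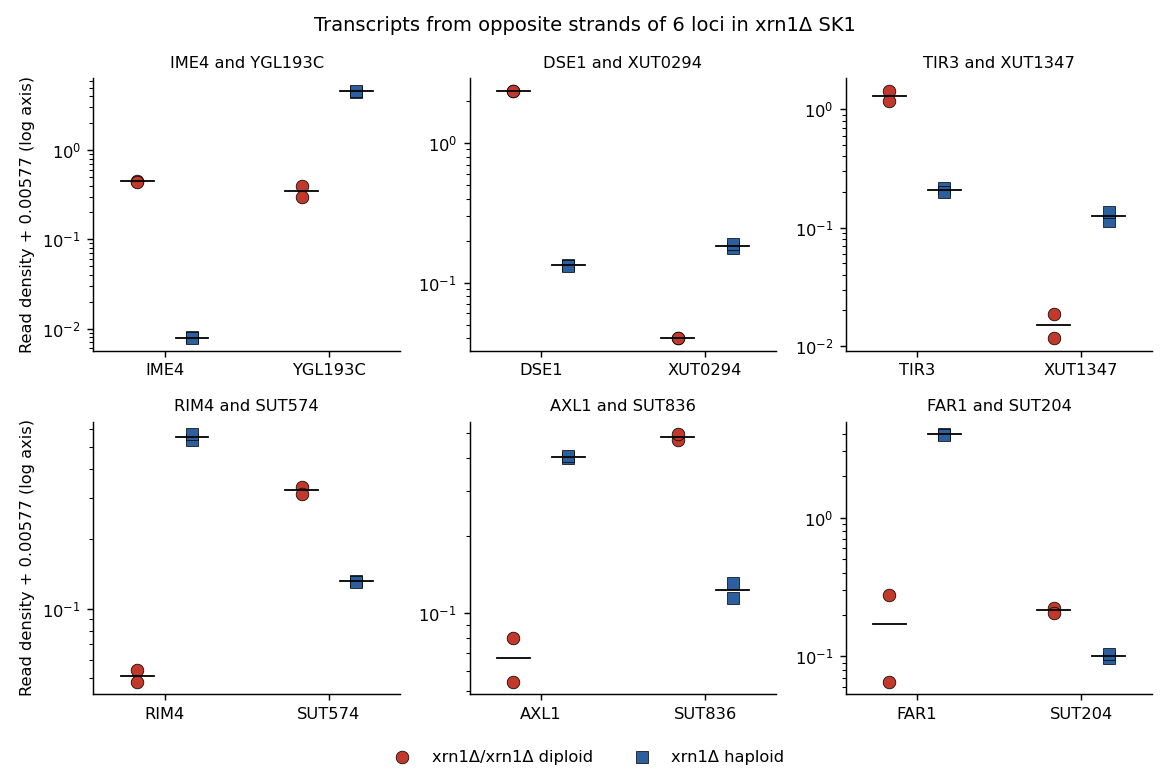
Read density (plus 0.00577, log axes that differ between panels) of 6 pairs of transcripts from opposite strands, with xrn1Δ/xrn1Δ diploids as circles and xrn1Δ haploids as squares, 1 point per library and a bar at the mean. In each panel the 2 transcripts differ between the groups in opposite directions, from IME4 (higher in diploids by 5.82 on the log2 scale) against YGL193C (lower by 3.72) to FAR1 against SUT204. YGL193C lies beside IME4 and does not overlap it.

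The wild-type libraries gave the ploidy difference with Xrn1 present, from libraries not shared with the xrn1Δ groups. The deposited scaling placed nearly all wild-type diploid values below haploid ones: 43 mRNAs rose (0.747%) and 5428 fell (94.2%), and the median difference was -1.41. Under median scaling 2356 rose (40.9%) and 1540 fell (26.7%). The direct test of the difference between the ploidy effects called 5053 mRNAs higher (87.7%) and 106 lower (1.84%) in xrn1Δ than in wild type, and 1155 (20.1%) and 2469 (42.9%) under median scaling, so this count follows the scaling. For lncRNAs the numbers were 1755 higher (49.3%) and 165 lower (4.63%), and 65 (1.83%) and 2646 (74.3%) under median scaling. Between the scalings 1792 mRNAs and 929 lncRNAs were called with opposite signs in this test, among them CTS1 (0.90 and -0.86 under median scaling). XRN1 was also among them (1.22 and -0.53), but it is deleted in both xrn1Δ groups, where its densities lay below the pseudocount. Its values therefore mainly mirror the wild-type difference (-0.94 and 0.57) and do not compare 2 ploidy effects.

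The following genes, except PHO84 at the end, had a difference between the ploidy effects that kept its direction under median scaling. IME4 had 0.0167 and 0.00709 in wild-type diploids and 0.000863 and 0.000371 in wild-type haploids, a ploidy difference of 1.41 against 5.82 in xrn1Δ, and the test of the difference gave 4.41 ± 0.309 (adjusted p = 1.31e-10), or 2.65 under median scaling. The haploid densities lie below the pseudocount, which sets these log2 sizes. The ratio of reads on the deposited scale was 208 in xrn1Δ (139 to 324) and 16.8 in wild type (8.34 to 39.4, from 120 and 79 diploid and 6 and 2 haploid reads), with 95% exact binomial intervals for counting error only. DSE1 rose in both, by 4.15 in xrn1Δ and 0.84 in wild type, with a difference of 3.31 (adjusted p = 5.82e-11) and 1.56 under median scaling. CTR3, a copper transporter gene, had 2.41 and 3.69 in xrn1Δ/xrn1Δ diploids and 1.48 and 1.72 in xrn1Δ haploids, but 0.224 and 0.235 in wild-type diploids against 2.35 and 1.92 in wild-type haploids. Its ploidy differences of 0.90 and -3.18 gave a difference of 4.08 (adjusted p = 5.82e-11), or 2.32 under median scaling. CTR1, another copper transporter gene, had ploidy differences of 0.35 in xrn1Δ and -2.76 in wild type, a difference of 3.11 (1.35 under median scaling). RSA3 and ALB1, both of ribosome assembly, followed with 3.11 and 3.02 (1.36 and 1.27 under median scaling) and with xrn1Δ differences that did not pass the test. SNZ1, of vitamin B6 synthesis, was the reverse, not called in xrn1Δ (-0.46) and higher by 3.48 in wild-type diploids, which had 1.45 and 0.849 against 0.109 and 0.0815 in wild-type haploids, a difference of -3.93 (adjusted p = 2.79e-10), or -5.69 under median scaling. PHO84 rose by 3.42 in xrn1Δ and 3.69 in wild type, and the difference of -0.26 ± 0.446 was not called (adjusted p = 0.608) but was -2.02 under median scaling (adjusted p = 0.00123).

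In this test 3 of the 4 alpha-specific genes were lower (all 4 under median scaling), and of the 13 haploid-specific genes 4 were lower and 4 higher (11 and 0 under median scaling). Over all mRNAs 1.84% were lower and 87.7% higher (42.9% and 20.1% under median scaling). The lower haploid-specific genes were STE18 (-2.89), FAR1, FUS3 (-1.87) and RME1 (-1.64). For the genes named by rule the test gave -3.63 for AFB1, -3.20 for MF(ALPHA)1, -2.90 for STE3 and -2.24 for FAR1, with adjusted p from 0.00245 to 0.0113, and -5.38, -4.95, -4.65 and -3.99 for the same genes under median scaling. The wild-type diploid libraries had 0.230 and 0.730 for AFB1 and 0.618 and 2.33 for MF(ALPHA)1. Their means were above those of the xrn1Δ/xrn1Δ diploids for AFB1 (0.480 against 0.0573), MF(ALPHA)1 (1.47 against 0.503) and STE3 (0.597 against 0.126). For FAR1 the wild-type mean was the lower one (0.140 against 0.166). Over the 4 alpha-specific genes wild-type diploid replicate 2 held a median of 2.89 times as much as replicate 1. Leaving out each diploid library in turn gave between -4.64 and -2.62 for AFB1, -4.39 and -2.02 for MF(ALPHA)1, -3.97 and -1.83 for STE3, and -3.28 and -1.20 for FAR1, whose call was lost without wild-type diploid replicate 2 (adjusted p = 0.0605). Among lncRNAs XUT0589 (-3.10), SUT419 (-2.89) and XUT0296 (-2.83), which lies opposite PMD1, were lower, with -4.85, -4.64 and -4.59 under median scaling. SUT836 (3.67), its overlapping XUT1794 (3.59) and CUT514 (3.42) were higher, with 1.92, 1.84 and 1.66. SUT836 fell in wild-type diploids by 1.70 (a difference of -0.18, not called, under median scaling), where it had 0.00530 and 0.00640 in diploids and 0.0316 and 0.0321 in haploids, while it rose by 1.98 in xrn1Δ.

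**Figure D5:**
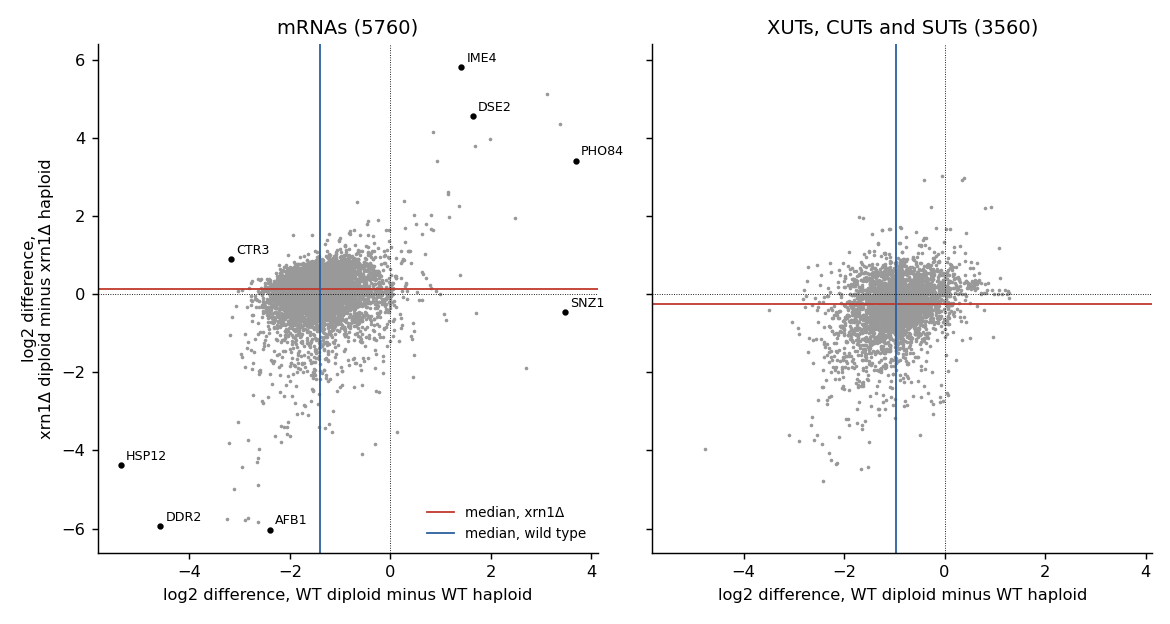
Log2 diploid minus haploid difference in xrn1Δ (vertical) against that in wild type (horizontal) for 5760 mRNAs and 3560 lncRNAs, 1 point per transcript, with lines at the medians. The cloud of mRNAs is centred at 0.13 in xrn1Δ and at -1.41 in wild type, and IME4, DSE2, PHO84, AFB1, DDR2, HSP12, SNZ1 and CTR3 are marked.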

How the data were processed

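Of the 36 samples, the 24 rRNA-depleted RNA-seq libraries (12 groups of 2) entered the model, and 8 of them are SK1. Terminator-treated and CAGE samples were not used here. Per the labels' protocols, hot-phenol RNA went through RiboMinus rRNA depletion and was sequenced in pairs on an Illumina HiSeq from strand-specific libraries. Reads were mapped with TopHat, per the submitters' processing notes. What counted the reads, which TopHat version and which genome build were not given in the sources used here.

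Deposited values are a signal that the authors' column names call a density, taken here to be reads per base times 1 factor per library, since multiplying it by transcript length gave whole multiples of 1 unit in 100% of values (tolerance 0.01). The same product summed over 77 snoRNAs was equal in all libraries, so snoRNAs appear to set the scale. Of 5798 genes, 5789 matched the R64 annotation by name and 5757 of these had its coordinates. Read in the R64 genome, 5747 of 5775 nuclear genes began with ATG. Sequences are from the RefSeq copy of R64.

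Values were taken as log2(density + 0.00576637), the pseudocount being the 5th percentile of nonzero densities. A feature was kept if 2 or more libraries reached this value, which left 9712. The model was limma 3.58.1 under R 4.3.3 (trend, robust, 12 residual degrees of freedom, no replicate block). Tests are two-sided with Benjamini-Hochberg adjustment. The model was run on simulated reads with the same mean profile and the same spread setting in every library, apart from a set of changed features. The data are unlike this setting, so the run gives no error rate for them. A count test had been planned only for raw counts, and voom on the recovered reads was an alternative. Tables and figures used Python 3.11.15, pandas 2.3.3, numpy 2.4.6 and matplotlib 3.10.9. P-values and SEs rest on the spread between the 2 libraries of a group, estimated for each feature over all 12 groups of the model. They do not measure the spread of the 4 xrn1Δ SK1 libraries alone, and each group compared is 1 strain.

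The comparison and the 27 gene lists were chosen with earlier results of these data known. Features named by rule passed an adjusted p of 0.05, changed at least 2-fold with no overlap between the groups and had a mean density above the median of their class. The 12 mRNAs and 6 lncRNAs that changed most in each direction are named, and for the difference between xrn1Δ and wild type 5 mRNAs and 3 lncRNAs each way. From each list the members of lowest adjusted p, 4 at most, are given too, the cell-type lists all members, and XRN1, IME1, IME4 and lncRNAs at them are always given. Other features in the text, such as neighbours of HO, STE3 and GPA1, the opposite-strand pairs, AGA1, FLO5 and the lower-ranked daughter genes (DSE3, EGT2, AMN1, ASH1 and SUN4), were chosen after their values were seen.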

Additional observations from a re-analysis of the deposited data

Results flagged for a closer look

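A different ploidy effect in xrn1Δ than in wild type, by the test of that difference, was found for 5053 mRNAs in the positive and 106 in the negative direction, and for 1755 and 165 lncRNAs. Under median scaling these counts were 1155, 2469, 65 and 2646, so their balance depends on the scale. The mRNAs named for it were SNZ1 (-3.93), AFB1 (-3.63), MF(ALPHA)1 (-3.20), STE3 (-2.90) and FAR1 (-2.24), and CTR3 (4.08), DSE1 (3.31), RSA3 (3.11), CTR1 (3.11) and ALB1 (3.02). The lncRNAs were XUT0589 (-3.10), SUT419 (-2.89) and XUT0296 (-2.83), and SUT836 (3.67), XUT1794 (3.59) and CUT514 (3.42). Values are log2, xrn1Δ minus wild type of the diploid minus haploid difference, on the deposited scale. Under median scaling the mRNAs gave -5.69, -5.38, -4.95, -4.65 and -3.99, and 2.32, 1.56, 1.36, 1.35 and 1.27, in the same order, and the lncRNAs -4.85, -4.64 and -4.59, and 1.92, 1.84 and 1.66. The summed density of the 4 alpha-specific genes was 2.41 and 1.17 in the xrn1Δ/xrn1Δ diploids, against 35.1 and 34.6 in the xrn1Δ haploids, and 3.05 and 7.39 in the wild-type diploids, against 21.4 and 20.1 in the wild-type haploids. Its part in the values of AFB1, MF(ALPHA)1, STE3 and FAR1 was not tested.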

How the results depend on the processing

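The scaling moved more counts than any other choice. Under median scaling 2341 mRNAs fell in xrn1Δ/xrn1Δ diploids, 169 lncRNAs rose and 1839 fell. In wild type 2356 mRNAs rose and 1540 fell, and 2051 lncRNAs rose and 179 fell. The test between xrn1Δ and wild type then gave 1155 and 2469 mRNAs and 65 and 2646 lncRNAs. In the lists it gave 2 rises of a-specific genes, 0 of haploid-specific, hexose transporter and general stress genes, 3 of early meiosis genes, 4 of G1 cyclins and of oxidative phosphorylation genes, 1 of mitochondrially encoded and of auxotrophic marker genes and 10 of ribosome biogenesis genes. Falls were then 5 for meiotic entry and auxotrophic markers, 15 for middle and late sporulation, 2 for bud-site selection and daughter genes, 1 for end joining, mitochondrially encoded genes and NMD factors, 6 for histones, 13 for glycolysis, 22 for oxidative phosphorylation and for amino acid biosynthesis, 7 for phosphate and ribosome biogenesis, 10 for decapping and 133 for ribosomal proteins. With the 4 xrn1Δ SK1 libraries alone 1687 mRNAs fell and 490 lncRNAs rose, and MF(ALPHA)1 (adjusted p = 0.0525) and FAR1 (adjusted p = 0.0557) lost their calls. With a pseudocount at the 25th percentile 29 lncRNAs rose in wild type, 174 mRNAs and 335 lncRNAs were lower in the test between genotypes, and 3 middle and late sporulation genes rose, 2 bud-site genes fell and 1 ribosomal protein gene rose. The smallest pseudocount gave 3 rises of a-specific genes, and a stricter filter on low values 1 fall of meiotic entry regulators and 2 of bud-site genes. The causes were not tested.

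Leaving out 1 library at a time gave between 1225 and 1622 rises and 690 and 872 falls of mRNAs and between 178 and 226 rises of lncRNAs. For the lists rerun without each diploid library, a choice made after seeing the data, it gave 0 rises of haploid-specific genes, 1 to 2 of pheromone-induced genes and 0 to 1 of general stress genes, while 11 to 12 haploid-specific genes fell and 7 daughter genes rose. No paired design is stated, and deviations of same-numbered xrn1Δ libraries correlated at 0.022. With a replicate block 1897 mRNAs rose and 1030 fell, and 315 lncRNAs rose and 1168 fell. Between the 2 scalings no mRNA or lncRNA was called with opposite signs in xrn1Δ, but 2041 mRNAs and 1391 lncRNAs were in wild type, PLB2 among them (-0.45 and 1.06 under median scaling), and 1792 mRNAs and 929 lncRNAs in the test between genotypes.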

Other observations

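Some transcripts stood apart in 1 library. YLR156W, YLR159W and YLR161W, near-identical reading frames on chromosome 12, had densities of 1.33, 1.98 and 1.65 in diploid replicate 1 but 0, 0 and 0.0118 in diploid replicate 2, against 1.48 to 1.99 in the xrn1Δ haploids, and were not called. YAR066W and YAR068W, whose mean densities are under the median of all mRNAs, rose by 3.99 and 4.36, with 0.193 and 0.182, and 0.670 and 0.570, in diploids and at most 0.0273 in haploids. The 4 genes of the 2-micron plasmid had a median ploidy difference of 0.87 and the 19 mitochondrial ones of 0.42.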
